A study of Mus musculus with 9 samples.

Results

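The 10 genes Rangrf, Pnck, Krtcap3, As3mt, Inhbb, Ttc38, Nlrx1, Zfp503, Tubb2b and Amigo2 were examined in mouse thymus tumors and normal thymus. They were chosen because their array signals did not overlap between resistant tumors and tumors, so that difference is described here and not tested. They were thus selected on the signals of the 6 tumor arrays themselves. The 10 genes are 10 of 11671 genes tested, and 13 of the 34945 probe sets that carry a single gene symbol belong to them. The groups are resistant tumor, which the labels describe as thymus tumor resistant to XIST (a noncoding RNA known for X chromosome silencing), then thymus tumor, and normal thymus. Each group has 3 arrays of total RNA from tissue, hybridised to the Affymetrix Mouse430_2 chip. The labels give no strain, genotype, sex, age, transgene or treatment for any group, and name no animals. The replicate arrays could therefore be technical, and the p-values cover their spread and nothing beyond it.

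The genes come from unrelated pathways. Inhbb encodes the beta B subunit of activin B and inhibin B, secreted factors of the TGF-beta family. Pnck is a calmodulin-dependent protein kinase of the CaMKI family, and As3mt is the enzyme that methylates arsenite. Nlrx1 is a NOD-like receptor that sits at mitochondria and modulates antiviral signalling, and Rangrf binds the small GTPase Ran, which drives nuclear transport. Zfp503 is a zinc finger repressor of developing brain, Tubb2b a beta-tubulin of developing neurons, and Amigo2 a leucine-rich repeat adhesion protein of the cell surface. Krtcap3 is a keratinocyte-associated membrane protein and Ttc38 a protein with tetratricopeptide repeats. Ttc38 and Amigo2 lie on chromosome 15 and Pnck on chromosome X. The other 7 lie on 7 different chromosomes.

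Signals are MAS5 values in arbitrary units, and levels are compared between arrays for a gene, never between genes. Array medians were 13.9 to 25.8. A signal under the median of its array is treated as too dim to measure, so a fold change against a group that dim on all 3 arrays is given as a bound. Resistant tumor 1 and 2, tumor 1 and normal thymus 1 lacked signal on the poly-A spike-in probe sets (mean 2.0 to 2.96), and the other 5 arrays had it (mean 102 to 173). Values within these sets of arrays, without and then with spike-in signal, stand in square brackets after fitted changes of the 10 genes where these are first given. The set without it holds 1 tumor and 1 normal thymus array, and the set with it 1 resistant array. Most bracketed values thus rest on 1 array in a group. The Actb control probe sets gave a 3' to 5' signal ratio, a sign of RNA quality, of 2.64 in resistant tumor 3 and 3.16 in tumor 2, against 1.63 to 1.98 on the other 7 arrays. Of 12 T cell markers, 7 were called lower and 1 higher in each tumor group against normal thymus (limma). Cd4 averaged 13.9 in resistant tumors, 17.5 in tumors and 1092 in normal thymus, and Cd5 averaged 35.1, 20.2 and 639 in the same groups. Ptcra, the 1 called higher, averaged 2262, 2672 and 334 in these groups, and Ptprc, Cd3d, Cd3e and Cd3g were not called. The 12 markers summed to 14951 to 17397 in resistant tumors, 16433 to 17550 in tumors and 20050 to 21727 in normal thymus. The other T cell markers included Cd2 and Cd8a, which were under the median on all arrays of both tumor groups, while 10 of the 12 reached it there on at least 1 array in each. Cd2 and Cd8a, 2 of the 7 called lower, were thus among the tested genes only through normal thymus. Their calls are a description. The summed signal of 11 thymic epithelial markers was 204 to 486 in resistant tumors, 415 to 673 in tumors and 8553 to 9263 in normal thymus. The 8 fibroblast markers summed to 3261 to 7505 in resistant tumors, 2560 to 5795 in tumors and 1144 to 1236 in normal thymus. Not all of them rose: limma called 5 higher and 1 lower in resistant tumors, and 4 higher and 0 lower in tumors. The 1 lower was Dcn, which averaged 219.5 in resistant tumors, 228 in tumors and 468 in normal thymus. In such bulk tissue, fewer cells of a type and less RNA per cell cannot be told apart. Between resistant tumors and tumors, limma called 0 of the 64 tested markers of 9 cell types, where 0.36% of all genes were called. An unadjusted p under 0.05 was found for 5 of them (7.81%), close to the 7.23% of all genes, so the markers did not stand apart from other genes in either count.

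Promoter windows of 250 bases before to 50 after the transcription start were in the RefSeq table of build GRCm38.p6 for 8 of the 10 genes. The 4 shown belong to the genes with the largest changes in each direction among those called in resistant tumors and not past the test in tumors. Amigo2 (chr15:97247238-97247537, minus strand) and Zfp503 (chr14:21989552-21989851, minus strand) were high in resistant tumors. Ttc38 (chr15:85832054-85832353, plus strand) and As3mt (chr19:46707208-46707507, plus strand) were low there. Capitals mark the GC box, GGGCGG or CCGCCC on the other strand.
Amigo2: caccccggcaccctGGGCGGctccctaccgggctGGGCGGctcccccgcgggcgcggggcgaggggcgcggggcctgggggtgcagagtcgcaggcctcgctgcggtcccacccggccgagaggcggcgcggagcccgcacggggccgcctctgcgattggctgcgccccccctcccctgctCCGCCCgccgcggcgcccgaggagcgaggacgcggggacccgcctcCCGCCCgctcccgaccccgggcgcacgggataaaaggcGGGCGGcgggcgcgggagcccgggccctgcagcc
Zfp503: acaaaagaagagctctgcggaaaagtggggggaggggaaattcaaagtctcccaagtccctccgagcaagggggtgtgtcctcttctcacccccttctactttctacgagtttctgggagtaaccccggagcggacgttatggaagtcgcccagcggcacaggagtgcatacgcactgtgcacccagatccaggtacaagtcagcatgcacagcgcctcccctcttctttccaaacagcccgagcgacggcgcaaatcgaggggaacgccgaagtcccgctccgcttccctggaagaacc
Ttc38: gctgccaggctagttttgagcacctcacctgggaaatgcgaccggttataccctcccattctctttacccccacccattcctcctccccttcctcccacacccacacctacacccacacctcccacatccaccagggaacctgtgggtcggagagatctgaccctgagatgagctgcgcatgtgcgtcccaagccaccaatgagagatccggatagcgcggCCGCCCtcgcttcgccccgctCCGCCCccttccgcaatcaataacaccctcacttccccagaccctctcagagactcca
As3mt: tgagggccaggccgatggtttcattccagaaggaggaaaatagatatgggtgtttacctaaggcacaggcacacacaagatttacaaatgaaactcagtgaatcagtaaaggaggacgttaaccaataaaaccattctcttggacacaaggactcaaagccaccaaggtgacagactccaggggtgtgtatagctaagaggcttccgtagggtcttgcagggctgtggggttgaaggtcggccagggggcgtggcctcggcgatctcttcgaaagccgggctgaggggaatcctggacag
The windows of Amigo2 and Ttc38 hold 5 and 2 GC boxes, and those of Zfp503 and As3mt hold 0. Over the 8 genes 5 windows have at least 1, against 35.9% of the 27025 promoters of that length in the table. The number of CG dinucleotides was 46 in Amigo2, 19 in Zfp503, 14 in Ttc38 and 9 in As3mt, where the median promoter has 7 (quartiles 3 and 21). Each pair, the genes high and the genes low in resistant tumors, thus had 1 window with the GC box and 1 without.

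Between resistant tumors and tumors, 7 of the genes were lower and 3 were higher without overlap, as their choice required. Over all genes tested, groups failed to overlap in 10.4%, with 6.01% lower and 4.41% higher in resistant tumors. In 6 of the 10 genes neither tumor group was under the array median on all 3 arrays. Among these the gap between the closest arrays was 2.95 on the log2 scale for Rangrf and 1.05 for Tubb2b. The Tubb2b gap lay between 216 in resistant tumor 2 and 104 in tumor 1. Their log2 differences, resistant tumor minus tumor, were -3.53 [-3.02, -4.14] for Rangrf, -2.36 [-2.44, -2.42] for Krtcap3, -1.86 [-1.94, -1.94] for Nlrx1 and -1.70 [-1.54, -2.08] for Inhbb. On the other side stood Zfp503 at 2.35 [2.04, 2.62] and Tubb2b at 1.68 [1.31, 2.05]. Pnck, Ttc38 and As3mt were under the array median on all 3 resistant arrays, so their differences are bounds, at least 4.61-fold, 1.74-fold and 5.23-fold lower. Pnck had signals of 4.56, 3.66 and 4.59 in resistant tumors, against 81.9, 84.8 and 126 in tumors. Amigo2 was that dim in all 3 tumors, and was at least 4.40-fold higher in resistant tumors. It passed the filter on dim genes only through its resistant arrays.

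**Figure D1:**
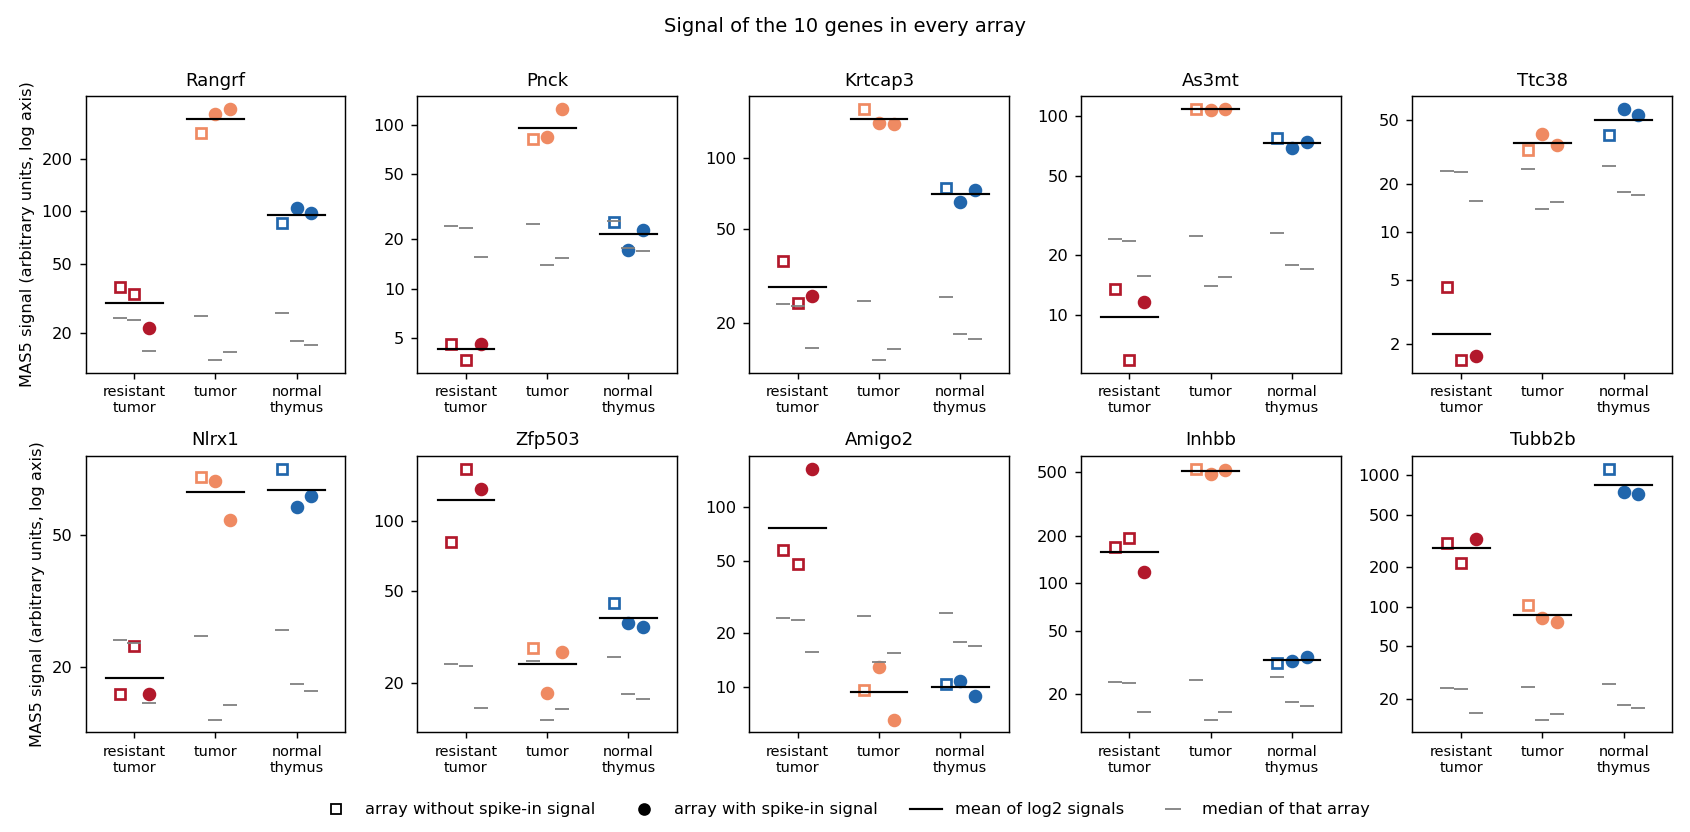
MAS5 signal (arbitrary units, log axis) of each gene in every array of resistant tumor, tumor and normal thymus, with black bars at the mean of the log2 signals and grey dashes at the median of each array. Open squares are arrays without spike-in signal and filled circles arrays with it. Rangrf, Pnck, Krtcap3, As3mt and Zfp503 have every normal thymus array between both tumor groups, and Inhbb and Tubb2b have resistant tumor between tumor and normal thymus.

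Normal thymus gave the point from which each tumor group departed. Amigo2 had to differ there, since only its resistant arrays carried it past the filter, so it is left out of the counts. Of the other 9 genes resistant tumors departed in 9, 2 higher and 7 lower, and tumors in 5, of which 4 were higher and 1 was lower (limma with Benjamini-Hochberg adjustment over all genes, adjusted p under 0.05). Among the 4 higher was Pnck, which reached the filter's 3 arrays only with its tumor arrays, so its rise is a description. Of all genes tested, 23.1% were called higher and 20.2% lower in resistant tumors, 43.3% together. In tumors 23.3% were called higher and 19.1% lower, 42.4% together. Both comparisons use the same normal arrays, and the tumor arrays in them are those by which the genes were chosen, so these counts are a description. The 95% intervals given below are not adjusted for the number of genes. Sizes depend on how dim signals are treated: with 50 added before the log, 9 of the 10 changes in resistant tumors, all but that of Tubb2b, and that of Pnck in tumors shrank by over 1.5 times with their calls kept. A set of 5 genes had every resistant array and every tumor array on opposite sides of all normal arrays, against 0.189% of all genes. That pattern presupposes the separation used for the choice.

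**Figure D2:**
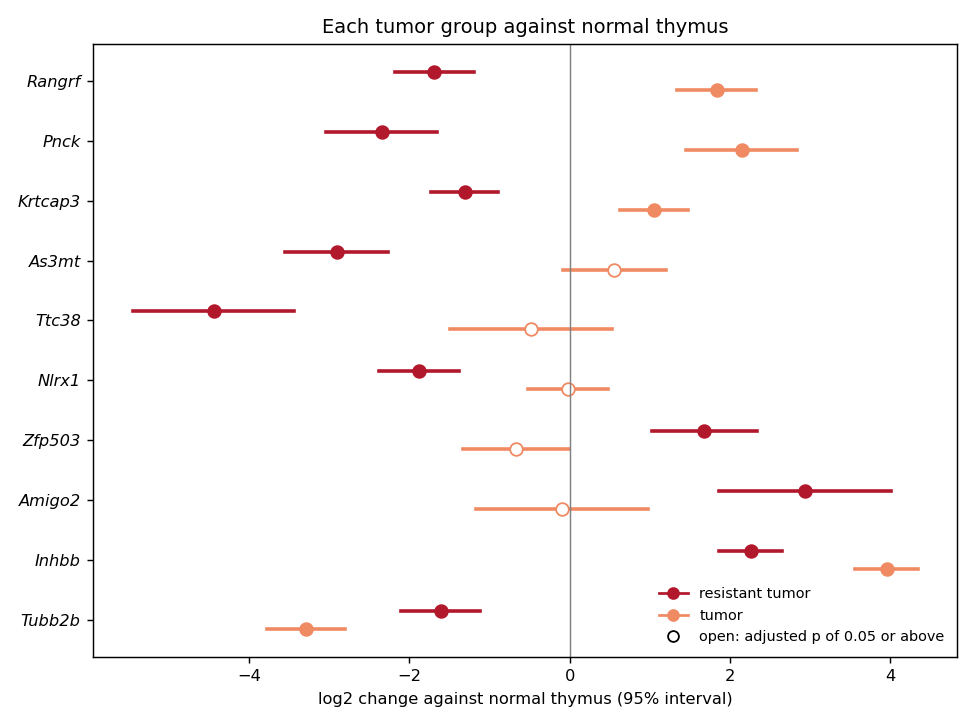
Log2 change against normal thymus for resistant tumor (dark red, upper of each pair) and tumor (orange), with limma's 95% interval and open points where the adjusted p was 0.05 or above. Rangrf, Pnck and Krtcap3 lie on opposite sides of 0, Inhbb and Tubb2b on the same side, and the other 5 have open points for tumor.

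Rangrf, Pnck and Krtcap3 departed in both tumor groups and in opposite directions. Rangrf had signals of 36.6, 33.3 and 21.4 in resistant tumors, 282, 363 and 390 in tumors, and 85.3, 105 and 97.8 in normal thymus. No array of one group reached the range of another. Against normal thymus Rangrf fell by 1.69 ± 0.22 on the log2 scale in resistant tumors (SE, n = 3 arrays a group, limma adjusted p = 0.000264) [-1.29, -2.24]. It rose by 1.84 ± 0.22 in tumors (adjusted p = 0.000156) [1.73, 1.89]. Krtcap3 had 36.5, 24.3 and 26.1 in resistant tumors, 162, 140 and 139 in tumors, and 74.4, 64.8 and 73.2 in normal thymus, again 3 separate ranges. It fell by 1.31 ± 0.19 in resistant tumors (adjusted p = 0.000455) [-1.32, -1.40] and rose by 1.05 ± 0.19 in tumors (adjusted p = 0.00158) [1.12, 1.02]. Pnck, whose tumor arrays are given above, had 25.7, 17.1 and 22.8 in normal thymus, where 1 of 3 arrays reached its median. It rose by 2.15 ± 0.31 in tumors (adjusted p = 0.000471) [1.67, 2.39]. Pnck passed the filter only with its tumor arrays, so that rise is a description. Its fitted fall in resistant tumors was -2.34 ± 0.31 (adjusted p = 0.000287) [-2.65, -2.10], but with resistant arrays under the median the bound is at least 1.04-fold lower. With signals under 16 set to 16, the change was -0.43 and no longer past the test (adjusted p = 0.142).

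As3mt, Ttc38 and Nlrx1 fell in resistant tumors and did not pass the test in tumors. As3mt had 13.5, 5.93 and 11.7 in resistant tumors, 109, 108 and 108 in tumors, and 77.8, 68.8 and 74.1 in normal thymus. It was at least 3.55-fold lower in resistant tumors than in normal thymus (fitted log2 change -2.91 ± 0.29, limma adjusted p = 4.94e-05) [-3.12, -2.61]. In tumors its log2 change was 0.56 ± 0.29 (adjusted p = 0.149, 95% interval -0.09 to 1.21) [0.48, 0.60]. The 3 tumor arrays of As3mt lay above the 3 normal arrays without overlap. The change in tumors passed with 50 added before the log (adjusted p = 0.00631), with signals under 16 set to 16 (0.0071), and without resistant tumor 2 (0.024). Ttc38 had 4.58, 1.59 and 1.70 in resistant tumors, 32.5, 41.0 and 34.9 in tumors, and 40.3, 58.8 and 53.9 in normal thymus. It was at least 2.43-fold lower in resistant tumors (fitted log2 change -4.44 ± 0.45, adjusted p = 5.52e-05) [-3.9, -5.05]. Tumors and normal thymus overlapped (log2 change -0.48 ± 0.45, adjusted p = 0.427, interval -1.49 to 0.53) [-0.31, -0.57]. Nlrx1 had 16.6, 23.1 and 16.6 in resistant tumors, 75, 73.0 and 55.4 in tumors, and 79.3, 60.8 and 65.6 in normal thymus. It fell by 1.88 ± 0.22 in resistant tumors (adjusted p = 0.000147) [-2.02, -1.93], where 1 of 3 arrays reached its median. Its change in tumors was -0.02 ± 0.22 (adjusted p = 0.952, 95% interval -0.52 to 0.48) [-0.08, 0.009].

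Zfp503 rose in resistant tumors and did not pass the test in tumors, and Amigo2 was bright in resistant tumors alone among the 3 groups. Zfp503 had 80.8, 168 and 136 in resistant tumors, 28.2, 18 and 27.3 in tumors, and 44.1, 36.4 and 34.8 in normal thymus. It rose by 1.68 ± 0.29 in resistant tumors (limma adjusted p = 0.00148) [1.40, 1.94]. All 3 tumor arrays lay below all 3 normal arrays, with a log2 change of -0.67 ± 0.29 (adjusted p = 0.0949, interval -1.33 to -0.01) [-0.64, -0.68]. Without resistant tumor 1 the adjusted p of that change was 0.044. Amigo2 had 57.5, 48.3 and 163 in resistant tumors, 9.68, 13 and 6.63 in tumors, and 10.5, 10.8 and 8.92 in normal thymus. Resistant tumor 3 was the highest, and the tumor and normal arrays overlapped under their medians. Amigo2 was at least 3.87-fold higher in resistant tumors than in normal thymus (fitted log2 change 2.94) [2.33, 4.06], a description for the reason given above. Resistant tumor 3 is also 1 of the 2 arrays with a high Actb ratio, whose part was not tested. Both other groups were too dim for a fold change between them. Zfp503 and Tubb2b are known from neurons, and the summed signal of 12 neuronal markers was 146 to 214 in resistant tumors, 100 to 183 in tumors and 155 to 218 in normal thymus. Of these markers 9 in resistant tumors, 10 in tumors and 8 in normal thymus were under the median on all arrays, among them Snap25, Syp, Stmn2, Map2 and Nefl in each group. Of the 4 neuronal markers that passed the filter, 1 was called higher and 2 lower in each tumor group (limma). Uchl1 was at least 3.10-fold higher in resistant tumors (adjusted p = 0.000451) and 2.94-fold higher in tumors (adjusted p = 0.000534) than in normal thymus. Nefm was at least 2.56-fold lower in resistant tumors (adjusted p = 0.00125) and 3.04-fold lower in tumors (adjusted p = 0.000543), and Syt1 was at least 1.62-fold and 1.93-fold lower (adjusted p = 0.0218 and 0.00757). Nefm and Syt1 passed the filter only through normal thymus arrays, so their falls are a description. Uchl1 passed it only through tumor arrays, so its rise is a description too.

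Inhbb and Tubb2b departed from normal thymus in both tumor groups in the same direction, further in tumors. Inhbb had 170, 193 and 119 in resistant tumors, 529, 488 and 516 in tumors, and 31.6, 32.5 and 34.7 in normal thymus. It rose by 2.26 ± 0.18 in resistant tumors (limma adjusted p = 1.13e-05) [2.52, 1.83] and by 3.96 ± 0.18 in tumors (adjusted p = 5.18e-07) [4.06, 3.9]. The rise ran beside the higher fibroblast marker sums of both tumor groups given above, whose part in it was not tested. Tubb2b had 307, 216 and 330 in resistant tumors, 104, 82.3 and 76.9 in tumors, and 1129, 754 and 727 in normal thymus. It fell by 1.61 ± 0.22 in resistant tumors (adjusted p = 0.000341) [-2.13, -1.17] and by 3.29 ± 0.22 in tumors (adjusted p = 4.49e-06) [-3.44, -3.22]. The thymic epithelial marker sums were lower beside it in both tumor groups, and their part was not tested. The order of groups for Inhbb was thus tumor, resistant tumor, normal thymus, and for Tubb2b the reverse.

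Other probe sets of the genes showed where a single probe set carries the result. The second Zfp503 probe set had 25.5, 69.5 and 34.6 in resistant tumors, 7.24, 2.76 and 9.44 in tumors, and 19.6, 6.57 and 8.54 in normal thymus. It was high in the same group as the first. All its tumor and normal thymus arrays were under their medians, so only its resistant arrays carried it past the filter. The second Inhbb probe set had 39.2, 37.3 and 20.9 in resistant tumors, 100, 37.9 and 60.7 in tumors, and 19.9, 10.9 and 7.29 in normal thymus. Here resistant tumors and tumors overlapped by 0.05 on the log2 scale, which puts it just outside the rule by which the genes were chosen. The second Amigo2 probe set ran the other way, with 2.53, 1.72 and 3.40 in resistant tumors, 13.6, 4.98 and 5.74 in tumors, and 2.09, 2.41 and 5.66 in normal thymus. It was under the array median on all 9 arrays, too dim for its difference to be read. A probe set shared by Tubb2b and the pseudogene Tubb2a-ps2 had 21.2, 19.999 and 23.2 in resistant tumors, 15.4, 4.29 and 11.2 in tumors, and 89.2, 98.5 and 126 in normal thymus. Normal thymus was high here too. All 3 tumor arrays and resistant tumor 1 and 2 were under their array medians, so no order between the tumor groups can be read from it. Tubb2a, a near-identical beta-tubulin gene beside Tubb2b on chromosome 13, had 253, 172 and 239 in resistant tumors, 185, 221 and 208 in tumors, and 930, 999 and 1007 in normal thymus. Its resistant and tumor arrays overlapped (log2 change 0.10 ± 0.15, limma adjusted p = 0.897, interval -0.25 to 0.44). Probe sets of such close copies can share target RNA, and the probe sequences were not used here.

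**Figure D3:**
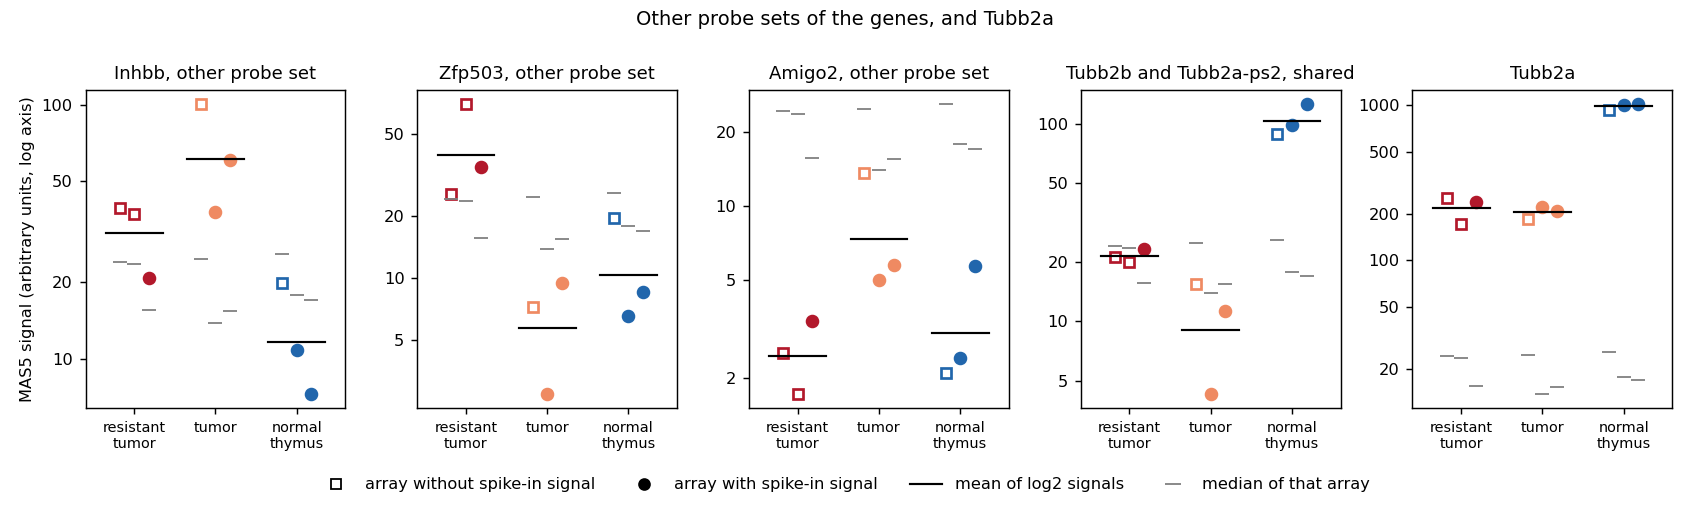
MAS5 signal (arbitrary units, log axis) in every array of resistant tumor, tumor and normal thymus for the second probe sets of Inhbb, Zfp503 and Amigo2, the probe set shared by Tubb2b and Tubb2a-ps2, and Tubb2a, with black bars at the mean of the log2 signals and grey dashes at each array's median. The second Amigo2 probe set lies under the median on every array, and Tubb2a has overlapping resistant tumor and tumor arrays.

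Relatives and pathway partners of the genes were taken as 8 lists. Between resistant tumors and tumors limma called 0 of their 73 tested genes, where 0.36% of all genes were called, and 7 (9.59%) had an unadjusted p under 0.05, against 7.23% of all genes. At such a low share a count of 0 does not set them apart. Against normal thymus each list's count is to be read beside the 43.3% of all genes called in resistant tumors and the 42.4% called in tumors, and its median log2 change beside 0.06 and 0.05. Of 10 calmodulin-dependent kinase genes tested beside Pnck, 5 were higher and 2 lower in resistant tumors (median 0.63), and 5 were higher and 3 lower in tumors (median 0.46). Camk1g, another CaMKI kinase, averaged 133 ± 30.6 in resistant tumors, 318 ± 18 in tumors and 31.6 ± 11.0 in normal thymus (SD, n = 3 arrays each). It rose by 2.10 ± 0.25 in resistant tumors (SE, adjusted p = 0.000127) and by 3.39 ± 0.25 in tumors (adjusted p = 7.01e-06), and the change between resistant tumors and tumors was -1.28 (adjusted p = 0.0854). Camk4, a kinase abundant in thymocytes, fell in both tumor groups, with log2 changes of -2.21 ± 0.16 in resistant tumors and -2.51 ± 0.16 in tumors (adjusted p = 9.33e-06 and 4.19e-06). Camk1d fell in both tumor groups, with log2 changes of -2.38 ± 0.17 in resistant tumors and -2.82 ± 0.17 in tumors (adjusted p = 6.09e-06 and 2.06e-06).

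In the activin and inhibin list, 2 of 13 tested genes were higher and 3 lower in resistant tumors (38.5% called, median -0.12), and 3 were higher and 3 lower in tumors (46.2% called, median 0.02). Both shares are near those of all genes. Fstl3, which binds and neutralises activins, averaged 51.6 ± 6.78 in resistant tumors, 50.9 ± 7.72 in tumors and 16.4 ± 3.07 in normal thymus (SD, n = 3 arrays each), a rise of 1.66 ± 0.23 in resistant tumors and 1.64 ± 0.23 in tumors (SE, limma adjusted p = 0.000395 and 0.000416). Tgfbr3, a coreceptor for inhibin, fell in both tumor groups, with log2 changes of -2.51 ± 0.45 in resistant tumors and -2.75 ± 0.45 in tumors (adjusted p = 0.0017 and 0.001). Inhba, the subunit of activin A, was called higher in both tumor groups (adjusted p = 0.0353 in resistant tumors and 0.0328 in tumors), but its mean signals of 17.7 in resistant tumors, 19.2 in tumors and 2.48 in normal thymus were too dim for a fold change. It passed the filter only through tumor arrays, so that call is a description.

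Of 8 other tubulin genes tested, 2 were higher and 2 lower in resistant tumors (median -0.11), and 1 was higher and 3 lower in tumors (median 0.10), about the share of all genes. Tubb2a fell in both tumor groups, with log2 changes of -2.17 ± 0.15 in resistant tumors and -2.26 ± 0.15 in tumors (limma adjusted p = 6.7e-06 and 4.84e-06). Tuba4a fell in both tumor groups, with log2 changes of -0.74 ± 0.16 in resistant tumors and -0.84 ± 0.16 in tumors (adjusted p = 0.00481 and 0.00241). Tuba8 rose in both, by 2.50 ± 0.29 in resistant tumors and 2.05 ± 0.29 in tumors (adjusted p = 0.000114 and 0.000377). The Ran cycle and nuclear transport list around Rangrf had 6 of 14 genes higher in resistant tumors (42.9%, beside 23.1% of all genes) and 3 in tumors (21.4%, beside 23.3%), with none lower. Its medians were 0.22 in resistant tumors and 0.20 in tumors. The importin gene Kpnb1 rose by 0.70 ± 0.09 in resistant tumors and 0.78 ± 0.09 in tumors (adjusted p = 0.000214 and 0.000106). Ranbp1 rose by 0.49 ± 0.11 in resistant tumors and 0.46 ± 0.11 in tumors (adjusted p = 0.00542 and 0.00751). Rangap1, the activator of Ran's GTPase, rose by 0.59 ± 0.16 in resistant tumors (adjusted p = 0.0158), and its change in tumors was 0.25 ± 0.16 (adjusted p = 0.255).

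Beside As3mt, 5 of 9 genes of arsenic methylation and glutathione metabolism rose in resistant tumors (55.6%, beside 23.1% of all genes) and 7 in tumors (77.8%, beside 23.3%), with none lower. Gsto1, an omega-class glutathione transferase, rose by 1.90 ± 0.18 in resistant tumors and 1.51 ± 0.18 in tumors (limma adjusted p = 3.08e-05 and 0.000126). N6amt1 rose by 1.42 ± 0.27 in resistant tumors and 1.33 ± 0.27 in tumors (adjusted p = 0.00236 and 0.00338). Ahcy, which clears the S-adenosylhomocysteine left by methyltransferases, rose by 1.46 ± 0.18 in resistant tumors and 1.54 ± 0.18 in tumors (adjusted p = 0.000222 and 0.000151). The medians of this list were 0.53 in resistant tumors and 1.07 in tumors.

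The list of mitochondrial antiviral signalling and NOD-like receptors around Nlrx1 had 1 of 10 genes higher and 2 lower in each tumor group (30% called, medians -0.18 in resistant tumors and -0.17 in tumors). Ciita, the activator of MHC class II genes, was at least 2.10-fold lower in resistant tumors and 2.49-fold lower in tumors (limma adjusted p = 0.0168 and 0.0447). Ciita passed the filter only through normal thymus arrays, so its fall is a description. Nlrc3 fell in both tumor groups, with log2 changes of -1.68 ± 0.42 in resistant tumors and -1.16 ± 0.42 in tumors (adjusted p = 0.0093 and 0.0472). Tufm, a mitochondrial elongation factor that binds NLRX1, rose by 0.52 ± 0.12 in resistant tumors and 0.40 ± 0.12 in tumors (adjusted p = 0.00693 and 0.0233). The list around Zfp503 had 2 of 6 genes higher and 2 lower in resistant tumors (median -0.08), and 1 higher and 2 lower in tumors (median -0.20). The Groucho corepressor gene Tle4 was at least 8.23-fold lower in resistant tumors and 9.76-fold lower in tumors (adjusted p = 9.04e-05 and 5.89e-05). Tle1 was at least 3.29-fold and 3.9-fold lower in the same groups (adjusted p = 0.00232 and 0.00204), and Tle3 rose by 0.34 ± 0.11 and 0.71 ± 0.11 (adjusted p = 0.0325 and 0.000822). Tle4 and Tle1, the 2 called lower, passed the filter only through normal thymus arrays, so their falls are a description. Of 13 relatives of Amigo2 only 3 passed the filter, and 1 was higher in each tumor group (medians 1.03 in resistant tumors and 0.24 in tumors). Lrfn4, a synaptic adhesion protein, was at least 2.18-fold higher in resistant tumors and 2.41-fold higher in tumors (adjusted p = 0.000892 and 0.000612). It was under the median on all normal thymus arrays and passed the filter only through tumor arrays, so its rise is a description too.

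The chromosomal neighbours of the genes, the 2 nearest tested genes on each side, had log2 differences of -1.11 to 1.05 between resistant tumors and tumors. Of these 40 genes limma called 0, where 0.36% of all genes were called, so that count does not set them apart. An unadjusted p under 0.05 was found for 6 (15%), against 7.23% of all genes. All 8 neighbours of Amigo2 and Ttc38 on chromosome 15 had positive differences, against 15 of the 32 others, and 3 of the 6 lie there. This split by chromosome was chosen after the values were seen and was not tested. Around Amigo2 the differences were 0.37 ± 0.10 for Slc38a1 (adjusted p = 0.222), 0.11 ± 0.11 for Slc38a2 (adjusted p = 0.863) and 1.05 ± 0.35 for Pced1b (adjusted p = 0.438). Ttc38 lay between Cdpf1 at 0.19 ± 0.29 (adjusted p = 0.896) and Gtse1 at 0.65 ± 0.18 (adjusted p = 0.276), both opposite in sign to it. On chromosome X, Dusp9 and Slc6a8 beside Pnck changed by -1.11 ± 0.62 (adjusted p = 0.777) and 0.06 ± 0.21 (adjusted p = 0.951).

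**Figure D4:**
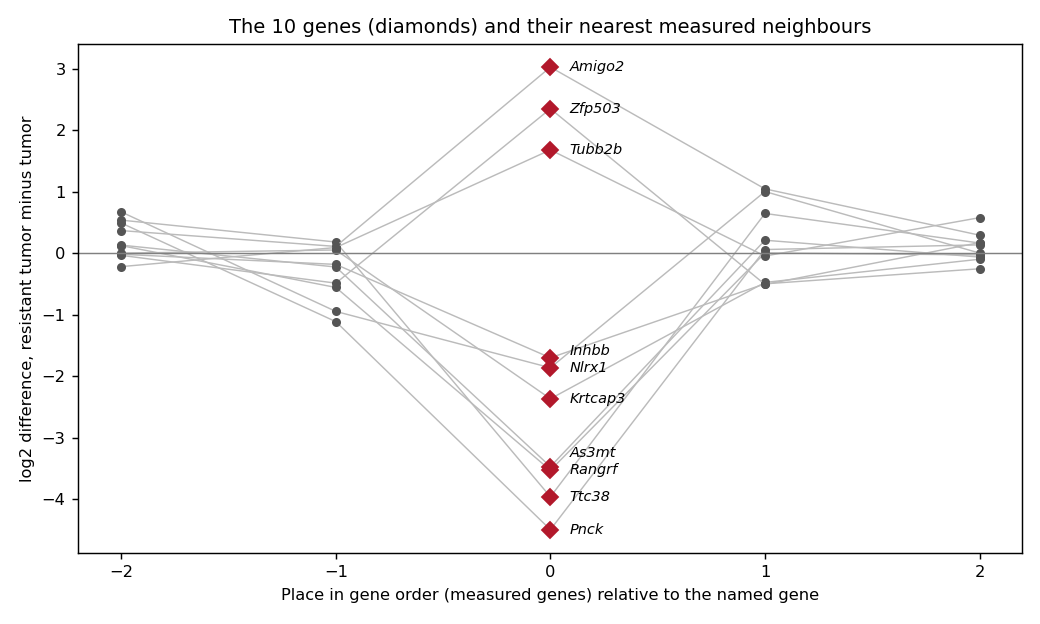
Log2 difference of resistant tumor minus tumor for the 10 genes (red diamonds, place 0) and for the 2 nearest tested genes on each side in gene order (grey points, places -2 to 2). The genes at place 0 were chosen for this difference, and the neighbours lie between -1.11 and 1.05.

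The genes whose log2 signals ran most like each of the 10 over the 9 arrays were named by Pearson's r, as a description. The arrays form 3 groups, so r mainly reflects group means. Likeness among the 10 genes themselves also follows in part from the rule by which they were chosen. Pnck and Krtcap3 ran closest to each other (r = 0.98) and Rangrf closest to Pnck (r = 0.98), with Grk3, a kinase of G protein-coupled receptors, next for Pnck and Rangrf (r = 0.98 for each). Inhbb was closest to Utp25 (r = 0.99) and Fam171a1 (r = 0.99), and opposite to Tubb2b (r = -0.98). Tubb2b was closest to Trat1 (r = 0.98), the gene of a T cell receptor adaptor, and to the glutamate receptor gene Gria3 (r = 0.98). Zfp503 was closest to Dcaf13 (r = 0.95) and then to Kit (r = 0.92), the stem cell factor receptor, which averaged 129 in resistant tumors, 38.5 in tumors and 57.3 in normal thymus. Amigo2 was closest to Smim6 (r = 0.94) and to the imprinted zinc finger gene Plagl1 (r = 0.94). As3mt was closest to Fah (r = 0.96), an enzyme of tyrosine breakdown, and Ttc38 and Nlrx1 both to Zfp286 (r = 0.97 and 0.96), which averaged 0.58 in resistant tumors, 13.6 in tumors and 30.5 in normal thymus. Gria3 averaged 4.49 in resistant tumors and 0.33 in tumors. The means of Zfp286 and Gria3 in both tumor groups lie under the lowest array median of 13.9. Their r values thus rest partly on signals too dim to measure.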

How the data were processed

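The values are linear signal intensities, 1 per probe set and array, which the authors made with MAS5 and deposited, per the submitters' processing notes. Version, scaling target and detection calls were not given in the sources used here. The mean left after trimming the extremes was 100.03 in every array, to 2 decimals. Probe sets were named through the supplied platform gene table, with symbols updated by gene identifier (18032 of 18193 matched, RefSeq assembly GRCm38.p6). Signals were floored at 1 and log2 transformed. Probe sets reaching their array's median on at least 3 of 9 arrays were kept, and each gene was read from its brightest one. One model with a mean per group and 6 residual degrees of freedom was fitted in limma 3.58.1 under R 4.3.3, with an intensity trend and Benjamini-Hochberg adjustment over all 11671 genes, and called at an adjusted p under 0.05. It was tested on simulated data. Figures used matplotlib 3.10.9.

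A bound compares the brighter group's mean log2 signal with the dimmer group's mean, per array, of the higher of its signal and the array median. In tumor 1 the control rows were out of order (correlation with the other arrays -0.29 as deposited, 0.91 after sorting by name), and its spike-in signal was read after sorting.

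The genes, lists and tests were chosen with earlier results of these data known. The rule for named genes takes all 10 members, up to 3 called genes per list with the largest change, and the 2 genes most like each member. It also takes called neighbours of members, of which there were none. Neighbours, markers, Tubb2a and further genes shown for contrast were named after their values were seen. Alternatives were 2 normalizations, another offset and floor, 2 filters, no trend, the mean over probe sets, 2 blocks, and leaving out each array.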

Additional observations from a re-analysis of the deposited data

Results flagged for a closer look

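In 5 genes every resistant tumor array lay on one side of all normal thymus arrays and every tumor array on the other. Over all genes tested that share was 0.189%, and the pattern presupposes the separation by which these genes were chosen. The log2 changes against normal thymus were -1.69 in resistant tumors and 1.84 in tumors for Rangrf, -2.34 and 2.15 for Pnck, and -1.31 and 1.05 for Krtcap3. They were -2.91 in resistant tumors and 0.56 in tumors for As3mt, and 1.68 and -0.67 for Zfp503. The difference between the tumor groups was not tested, because the genes were chosen by it, and the changes of As3mt and Zfp503 in tumors did not pass limma's test. Resistant arrays of Pnck and As3mt were under the array median, so these changes are bounds, at least 1.04-fold lower for Pnck and 3.55-fold lower for As3mt. With signals under 16 set to 16, the Pnck change was -0.43 and no longer past limma's test (adjusted p = 0.142).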

How the results depend on the processing

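The number of array replicates and the dim signals limit these results. The 10 calls in resistant tumors against normal thymus, Amigo2 included, and the 5 in tumors kept their direction under every alternative that fitted them. The call of Amigo2, here and in the counts of 10 below, is no sign of stability. Only its resistant arrays carried it past the filter. Pnck passed the filter only with its tumor arrays, so its call in tumors is no sign of stability either. Pnck in resistant tumors lost its call with signals under 16 set to 16. With 50 added before the log, 9 of the 10 changes in resistant tumors and 1 of the 5 in tumors shrank by over 1.5 times, among them Nlrx1 to -0.78, Krtcap3 to -0.62, Rangrf to -0.86, Zfp503 to 0.98 and Inhbb to 1.33 in resistant tumors and Pnck to 1.03 in tumors. With the filter at the 75th percentile only Rangrf, Krtcap3, Inhbb and Tubb2b were tested, and 4 were called in resistant tumors. Leaving out single arrays gave 10 called members in resistant tumors and 5 to 6 in tumors. The uncalled changes in tumors turned sign for Nlrx1 (from -0.02 to 0.000596 with quantile normalization, 0.16 with equal array medians, 0.12 without tumor 3, 0.09 without normal thymus 1, and 0.0091 within the arrays with spike-in signal). They did so too for Amigo2 (from -0.09 to 0.15 with quantile normalization, 0.094 with equal array medians and 0.16 without tumor 3). Without single arrays the range was -0.10 to 0.12 for Nlrx1 and -0.32 to 0.16 for Amigo2.

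Over all genes, equal array medians moved the median change in tumors to 0.24 (0.05 as fitted) and that between resistant tumors and tumors to -0.26 (-0.02 as fitted). It left 2034 calls in resistant tumors and 2287 in tumors against normal thymus, in place of 5049 and 4943, and 18 in place of 42 between resistant tumors and tumors. That last count was 22 with no filter, 23 with the filter at the 75th percentile, 27 with the mean over probe sets and 143 with a block for the spike-in sets. Leaving out single arrays gave 8 (without tumor 2) to 70 calls (without resistant tumor 3) there, 3818 to 5310 in resistant tumors against normal thymus and 3878 to 5374 in tumors. It was also 10 without tumor 3, 20 without normal thymus 2 and 19 without normal thymus 3. Resistant tumor 3 and tumor 2 are the arrays with Actb 3' to 5' ratios of 2.64 and 3.16, while tumor 3 had 1.91. Array medians were 23.6 to 25.8 without spike-in signal and 13.9 to 17.8 with it. The part of the Actb ratios and of the spike-in sets in these shifts was not tested. With the replicate number as a block, 92 genes were called between resistant tumors and tumors, 6085 in resistant tumors against normal thymus and 5967 in tumors, with the 10 and 5 members unchanged in number. Same-numbered arrays deviated together with correlations of 0.37 to 0.65, except resistant tumor 2, at -0.30 with tumor 2 and -0.34 with normal thymus 2. Resistant tumor 2 lacked spike-in signal, and both of those arrays had it. The labels name no animals, so the numbers were not taken as pairs. The main model also holds no term for the spike-in sets, whose part in these correlations was not tested.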
